A study of Mus musculus with 18 samples.

Results

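The 8 genes described here are the mouse fatty acid synthesis genes Fasn, Acaca, Acacb, Acly, Scd1, Elovl6, Me1 and Srebf1, taken by symbol from a table of 18585 genes. All 8 were in the table, and all 8 passed the filter on low values, as did 13809 genes in all. The genes were listed for their place in the pathway, with earlier results of these data known. Fasn was selected on its measured normalized counts, which were lower in arthritis, so its arthritis values are given here without a test. RNA came from forepaws of C57BL/6 mice in 4 groups: Sema3b-/- mice with arthritis (5 libraries), Sema3b-/- control mice (4), wild-type (WT) mice with arthritis (5) and WT control mice (4). The labels name neither the arthritis model nor its stage, and give neither age nor sex. They also do not say how the Sema3b-/- allele was made. Libraries were made by CEL-seq, which reads the 3′ ends of polyadenylated RNA.

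Fatty acid synthesis starts in the cytosol from citrate. ATP citrate lyase (Acly) splits citrate into acetyl-CoA, acetyl-CoA carboxylase (Acaca in the cytosol, Acacb at the mitochondrial surface) makes malonyl-CoA, and fatty acid synthase (Fasn) builds palmitate from both, using NADPH that malic enzyme (Me1) helps to supply. Elovl6 lengthens the product and stearoyl-CoA desaturase (Scd1) introduces a double bond. Srebf1 encodes SREBP-1, a membrane-bound transcription factor that is cleaved to act in the nucleus and is known, mainly from liver, for raising transcription of these enzymes. In skin and limb, adipocytes and sebaceous glands are known for high rates of this synthesis.

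The libraries held 1732783 to 19464892 reads (median 7279063.5), recovered from the deposited values, which are counts divided by a size factor per library and are called normalized counts here. A gene with 0 reads in the shallowest library could still have up to 12.14 normalized counts, the value of 3 reads there, and this limit covers counting error only. Sema3b, the targeted gene, lay between 0 and 3.49 normalized counts in Sema3b-/- arthritis and 0 and 7.20 in Sema3b-/- control, against 23.7 to 66.7 in WT mice with arthritis and 44.2 to 67.5 in their controls. Sex, read from Xist and the Y-linked gene Ddx3y, was not balanced: 4 of 5 Sema3b-/- arthritis libraries, 2 of 4 Sema3b-/- control libraries, 1 of 5 WT arthritis libraries and 4 of 4 WT control libraries were female. Control titles also begin with another word than arthritis titles, so that arthritis and whatever these titles stand for cannot be told apart. The titles of 3 arthritis libraries (Sema3b-/- replicates 1 and 2, WT replicate 5) differ from the other arthritis titles. Whether every library came from its own animal is not spelled out in the labels, and p-values here reflect the spread among libraries. Both sexes occurred in 3 of the 4 groups, and all 32 pairs of libraries of 1 group differed by more than counting noise, with chi-square values 10.1 to 210 times their degrees of freedom.

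In the mm10 build, Fasn spans 120805846 to 120824547 on chromosome 11 (minus strand, 43 exons in its principal transcript). Chromosome 11 also holds Acly (100476353 to 100528000, minus strand, 28 exons), Acaca (84129672 to 84401651, plus strand, 54 exons) and Srebf1 (60199089 to 60222581, minus strand, 19 exons). Acacb lies on chromosome 5 (114146535 to 114250761, plus strand, 52 exons) and Scd1 on chromosome 19 (44394455 to 44407879, minus strand, 6 exons). Elovl6 lies on chromosome 3 (129532355 to 129638495, plus strand, 5 exons) and Me1 on chromosome 9 (86581371 to 86695953, minus strand, 14 exons). Rai1 overlaps Srebf1 on the opposite strand. The sources used here state neither whether counting used the strand nor how reads that match several Scd genes were treated.

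The promoters of Fasn, Srebf1 and Acly are shown because Fasn was the gene picked for its fall, Srebf1 encodes its best-known regulator, and Acly varied most like Fasn among the other 7 genes. RefSeq (GRCm38.p6) gave 10 windows of 250 bases before to 50 bases after a transcription start for 7 of the 8 genes, and none for Scd1. The 3 windows are chr11:120824498-120824797 for Fasn, chr11:100527951-100528250 for Acly and chr11:60210422-60210721 for the most downstream of 3 Srebf1 starts, all on the minus strand, written 5′ to 3′, with CCAAT boxes (CCAAT) and GC boxes (GGGCGG) on either strand in capitals.
Fasn: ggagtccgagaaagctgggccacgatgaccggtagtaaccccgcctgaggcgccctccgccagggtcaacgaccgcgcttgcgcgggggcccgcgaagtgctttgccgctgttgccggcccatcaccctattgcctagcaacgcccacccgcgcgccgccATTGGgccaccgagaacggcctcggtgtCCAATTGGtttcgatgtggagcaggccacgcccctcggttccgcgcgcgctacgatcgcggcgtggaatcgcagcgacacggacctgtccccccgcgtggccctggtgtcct
Acly: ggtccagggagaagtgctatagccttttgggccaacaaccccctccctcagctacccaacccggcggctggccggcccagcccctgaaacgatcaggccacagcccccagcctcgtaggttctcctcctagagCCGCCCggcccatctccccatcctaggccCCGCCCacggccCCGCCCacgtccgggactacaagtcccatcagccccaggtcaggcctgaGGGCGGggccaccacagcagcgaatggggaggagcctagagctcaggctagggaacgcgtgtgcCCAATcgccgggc
Srebf1: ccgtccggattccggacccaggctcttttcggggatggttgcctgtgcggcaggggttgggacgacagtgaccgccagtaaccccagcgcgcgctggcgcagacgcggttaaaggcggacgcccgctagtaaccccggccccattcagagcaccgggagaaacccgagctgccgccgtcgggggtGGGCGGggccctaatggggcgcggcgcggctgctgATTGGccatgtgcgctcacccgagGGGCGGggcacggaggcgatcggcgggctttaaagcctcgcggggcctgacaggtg

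The Fasn window held 3 CCAAT matches, 2 of which overlap, and no GC box. The Acly window held 1 CCAAT match and 4 GC boxes, and the Srebf1 window 1 CCAAT match and 2 GC boxes. Of all 32851 RefSeq windows of this length, 37.41% held a CCAAT box and 35.66% a GC box. None of the 10 windows held the SREBP element TCACNCCAC, the E-box CACGTG or the LXR element known as DR4, which 1.242%, 7.15% and 0.01522% of all windows held. DR4 was searched only as an exact direct repeat, and imperfect repeats, as are found in known LXR elements, were not searched. The result says only that those exact letters are not in these windows. It does not show that the windows lack SREBP, E-box or DR4 elements with other letters. The 3′ reads cannot tell the 3 Srebf1 starts apart.

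Arthritis in Sema3b-/- mice came with negative log2 fold changes against Sema3b-/- control in all 7 genes other than Fasn (median -0.45), and Scd1 alone among them passed the test at an adjusted p under 0.05. Over all genes tested in that comparison, 5.55% were called lower and 6.84% higher, 51.0% were negative, and the median was -0.01. In WT arthritis against WT control, the 7 genes were again all on the negative side (median -0.63) and none passed, where 1.58% of all genes were called lower, 2.64% higher, 51.9% were negative, and the median was -0.02. Without adjustment, 3 of the 7 had p under 0.05 in Sema3b-/- mice and 4 of 7 in WT mice, where 13.6% and 9.49% of all genes had such a p on the lower side. Each test was limma with robust empirical Bayes on log2(normalized count + 1), with Benjamini-Hochberg adjustment over 13809 genes. In whole forepaws, fewer cells of a type and less RNA per cell cannot be told apart.

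**Figure D1:**
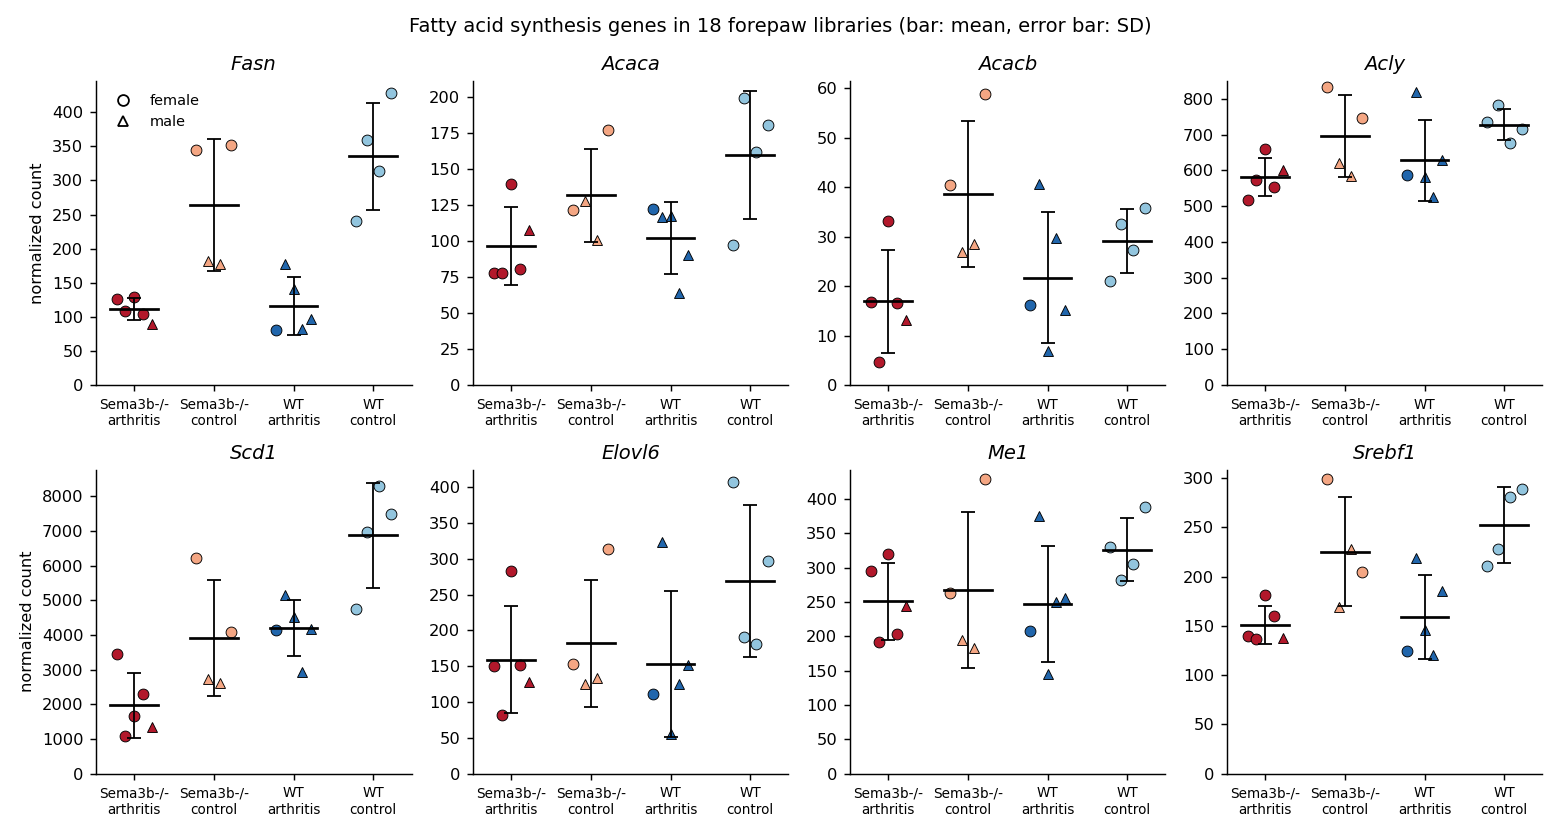
Normalized counts (vertical axis, linear, from 0) of the 8 genes in the 18 libraries, in panels by gene, with Sema3b-/- arthritis, Sema3b-/- control, WT arthritis and WT control from left to right; circles are female and triangles male libraries, horizontal bars the group means and error bars the SD. For Fasn, the 10 arthritis libraries sit between 81.3 and 177.5 and the 8 control libraries between 178.1 and 428, while the groups of the other genes overlap within each genotype. Fasn was chosen for its fall, and the gap from 177.5 to 178.1 is less than the value of 1 read (1.19) in Sema3b-/- control replicate 3.

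Fasn, the multi-domain enzyme that makes palmitate, had 126, 109, 129, 104 and 88.9 normalized counts in Sema3b-/- arthritis, against 344, 182, 178.1 and 351 in Sema3b-/- control. In WT arthritis it had 81.3, 177.5, 140.3, 82.5 and 96.3 normalized counts, against 239.8, 359, 313 and 428 in WT control. Every arthritis library was below every control library of its genotype, which was also so for 6.11% of all genes in Sema3b-/- mice and 4.71% in WT mice. Fasn averaged 111 ± 16.4 in Sema3b-/- arthritis (SD, n = 5) and 264 ± 96.8 in Sema3b-/- control (SD, n = 4), a fitted 2.26-fold lower level (log2 fold change -1.18, SE 0.26). In WT mice the averages were 116 ± 42.1 with arthritis (SD, n = 5) and 335 ± 79.1 in controls (SD, n = 4), 2.96-fold lower (-1.57, SE 0.26). The widest gap inside a group was in Sema3b-/- control, where the 2 male libraries had 182 and 178.1 and the 2 female libraries 344 and 351. In arthritis the single male Sema3b-/- library was the lowest of its group at 88.9, and the single female WT library was the lowest of its group at 81.3. With sex as a term the log2 fold change was -1.27 in Sema3b-/- mice and -1.31 in WT mice, and without the 3 libraries with other titles -1.23 and -1.52. Between 55 and 502 reads per library stood behind these values.

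Scd1, which turns stearate into oleate, had 3461, 1101, 1668, 2287 and 1338 normalized counts in Sema3b-/- arthritis, against 6207, 2745, 2626 and 4081 in Sema3b-/- control. In WT arthritis it had 4153, 5156, 4525, 2938 and 4182 normalized counts, against 4759, 6980, 8301 and 7487 in WT control. In both genotypes 4 of 5 arthritis libraries were below the lowest control library, and 1 overlapped. Scd1 fell in Sema3b-/- arthritis by 1.02 on the log2 scale (SE 0.31, limma adjusted p = 0.0392), a 2.03-fold lower level. This call ended without WT control replicate 2 (adjusted p = 0.0504), Sema3b-/- control replicates 1 (0.118) or 4 (0.0866) or Sema3b-/- arthritis replicates 2 (0.0989), 3 (0.065) or 5 (0.0898), and also without the 3 libraries with other titles (0.0577) or in female libraries alone (0.0807). In WT arthritis the log2 fold change of Scd1 was -0.71 (SE 0.31, limma adjusted p = 0.193), and -0.29 with sex as a term (adjusted p = 0.738). The 2 female Sema3b-/- control libraries had 6207 and 4081 and the 2 male ones 2745 and 2626, a split in the same direction as that of Fasn.

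Srebf1 had 139.9, 136.5, 181, 160.3 and 138 normalized counts in Sema3b-/- arthritis, against 299, 169, 228 and 205 in Sema3b-/- control. In WT arthritis it had 124, 219, 146, 121 and 186, against 211, 228, 280.5 and 289 in WT control. In each genotype 4 of 5 arthritis libraries were below every control library. The log2 fold change was -0.55 in Sema3b-/- mice (SE 0.19, limma adjusted p = 0.0693) and -0.69 in WT mice (SE 0.19, adjusted p = 0.0517), so neither passed. The WT value passed without WT arthritis replicate 2 (adjusted p = 0.0162), which was the highest of its group, and without Sema3b-/- control replicates 1 (0.0395) or 2 (0.0478). It also passed under TMM scaling (0.0485), with DESeq2 (0.0268, where 3.08% of all genes were called lower) and when genes had to reach 50 normalized counts (0.0415). By limma the WT adjusted p was 0.22 with sex as a term, 0.122 with a replicate block and 0.0942 with only the groups compared. The WT value passed in 3 of 18 fits that left out 1 library (up to 0.151, without WT control replicate 3). The Sema3b-/- value passed without Sema3b-/- control replicate 2 (adjusted p = 0.0396) or WT arthritis replicate 2 (0.0486). That was 2 of 18 such fits (adjusted p up to 0.197, without Sema3b-/- control replicate 1). Without the 3 libraries with other titles the Sema3b-/- adjusted p was 0.277.

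The carboxylases lay on the same side with more spread. Acaca had 77.7, 77.7, 139.7, 81.0 and 108 normalized counts in Sema3b-/- arthritis, against 121, 128, 101 and 177.5 in Sema3b-/- control (log2 fold change -0.45, SE 0.25, limma adjusted p = 0.249). It had 123, 117, 117, 63.8 and 90.6 in WT arthritis, against 97.3, 199, 162 and 181 in WT control (-0.63, SE 0.25, adjusted p = 0.159). WT control replicate 1 was below 3 of the 5 WT arthritis libraries. Acacb, whose malonyl-CoA is known for restraining fatty acid entry into mitochondria, was the least abundantly read of the 8, with 5 to 93 reads per library. It had 16.8, 4.74, 33.2, 16.6 and 13.2 normalized counts in Sema3b-/- arthritis, against 40.5, 26.8, 28.5 and 58.8 in Sema3b-/- control (-1.29, SE 0.49, adjusted p = 0.0886). Without Sema3b-/- arthritis replicate 3, the one that overlapped the controls, its adjusted p was 0.0435, the only 1 of 18 such fits that passed (up to 0.22). Without the 3 libraries with other titles its adjusted p was 0.358. In WT arthritis it had 16.3, 40.6, 6.90, 29.8 and 15.2, against 21.0, 32.5, 27.2 and 35.8 in WT control, with values both above and below the control range (-0.60, SE 0.49, adjusted p = 0.493).

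Acly varied least, with a 1.61-fold range over all 18 libraries, where Fasn had 5.26-fold and Acacb 12.4-fold. It had 517, 574, 658, 554 and 601 normalized counts in Sema3b-/- arthritis, against 833.5, 621, 584 and 746 in Sema3b-/- control (log2 fold change -0.25, SE 0.13, limma adjusted p = 0.226). In WT arthritis it had 585.5, 819.9, 581, 526 and 629, against 735, 783, 677 and 715 in WT control (-0.23, SE 0.13, adjusted p = 0.336). In WT mice 4 of 5 arthritis libraries were below every control and the other above every control. The 95% confidence intervals were -0.53 to 0.03 in Sema3b-/- mice and -0.51 to 0.05 in WT mice.

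Me1 had 295, 192, 319.6, 203 and 244.5 normalized counts in Sema3b-/- arthritis, against 263, 194, 183 and 428 in Sema3b-/- control, and the groups overlapped throughout (log2 fold change -0.03, 95% confidence interval -0.58 to 0.52, limma adjusted p = 0.953). In WT arthritis it had 207, 375, 145, 250.1 and 256, against 329, 281.5, 305 and 388 in WT control (-0.46, SE 0.26, adjusted p = 0.321). Here 4 of the 5 arthritis libraries were below the lowest control. Elovl6 had 150.3, 82.4, 282, 152.5 and 128 normalized counts in Sema3b-/- arthritis, against 154, 126, 134 and 314 in Sema3b-/- control (-0.20, SE 0.44, adjusted p = 0.801). It had 111, 324, 55.2, 125 and 151.5 in WT arthritis, against 407, 190.4, 181 and 297 in WT control (-0.96, SE 0.44, adjusted p = 0.221). Its intervals, -1.13 to 0.73 in Sema3b-/- mice and -1.88 to -0.03 in WT mice, were the widest after those of Acacb. Without the 3 libraries with other titles, its Sema3b-/- value was 0.06. In WT arthritis 7 of the 8 genes, all but Acaca, had their highest value in replicate 2, the library with the most reads.

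**Figure D2:**
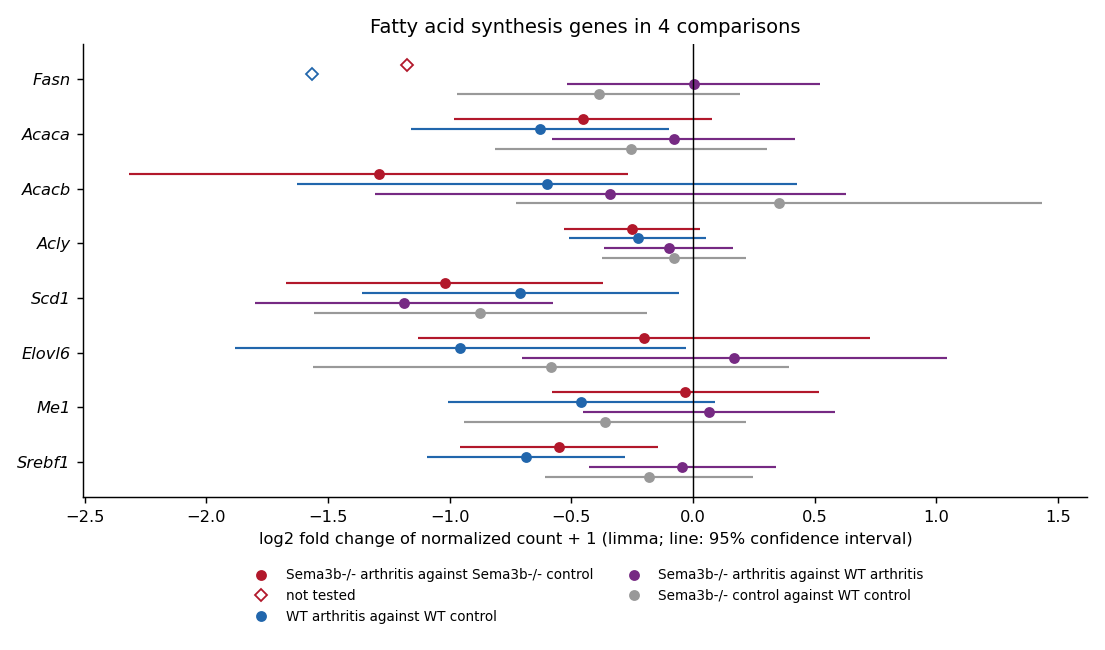
Log2 fold changes of normalized count + 1 (horizontal axis) for the 8 genes (rows) in 4 comparisons, with points for limma's estimate and lines for its 95% confidence interval, and open diamonds without a line for Fasn in the arthritis comparisons, which was not tested there. Fasn lies at -1.18 and -1.57 in the arthritis comparisons and near 0 between genotypes in arthritis, while Scd1 lies left of 0 in all 4 comparisons.

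None of the 8 genes passed the test between genotypes. In Sema3b-/- control against WT control 7 of 8 were negative (median -0.31), adjusted p ran from 0.802 to 0.983 by limma, and 0.0145% of all genes were called in either direction. Over all genes there, 50.8% were negative and the median was -0.01. In Sema3b-/- arthritis against WT arthritis 5 of 8 were negative (median -0.06), adjusted p ran from 0.228 to 0.999, and 0.0217% of all genes were called. Over all genes here, 49.7% were negative and the median was 0.002. Fasn averaged 111 ± 16.4 in Sema3b-/- arthritis and 116 ± 42.1 in WT arthritis (log2 fold change 0.00, 95% confidence interval -0.52 to 0.52, limma adjusted p = 0.999). It averaged 264 ± 96.8 in Sema3b-/- control and 335 ± 79.1 in WT control (-0.39, -0.97 to 0.19, adjusted p = 0.911). In female libraries alone that value was 0.08, and those of Acly (0.12) and Me1 (0.05) turned positive too. The values of Acaca, Scd1, Elovl6 and Srebf1 stayed negative there.

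Scd1 had the lowest adjusted p of the 8 in both genotype comparisons. It averaged 1971 ± 945 in Sema3b-/- arthritis (SD, n = 5) and 4191 ± 809 in WT arthritis (SD, n = 5), and 4 of 5 Sema3b-/- libraries were below every WT library (log2 fold change -1.19, SE 0.29, limma adjusted p = 0.228). Of 29 alternatives, DESeq2 alone called this difference (adjusted p = 0.0466), where it called 0.536% of all genes lower. By limma the adjusted p was 0.117 to 0.518 when 1 library was left out and 0.74 without the 3 libraries with other titles. Among controls, Scd1 averaged 3915 ± 1664 in Sema3b-/- mice and 6882 ± 1516 in WT mice (SD, n = 4 each; -0.87, SE 0.32, adjusted p = 0.802). In female libraries alone this control difference was -0.42.

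The order of the 4 group means was WT control, Sema3b-/- control, WT arthritis, Sema3b-/- arthritis for Fasn, Acaca, Acly and Srebf1. For Scd1, WT arthritis came before Sema3b-/- control, for Acacb the controls changed places, and for Elovl6 and Me1 the arthritis groups did. Of the neighbours in these orders that were tested against each other, Sema3b-/- arthritis and Sema3b-/- control differed for Scd1, and no other neighbours passed. For Fasn, the WT arthritis libraries (81.3 to 177.5) lay just below the Sema3b-/- control libraries (178.1 to 351), a pair that was not tested. The difference of the arthritis effects between genotypes was tested as an interaction. It was not called for any of the 7 genes tested (limma adjusted p 0.974 to 0.994), nor for any of 13809 genes (663 with an unadjusted p under 0.05, and 6 called by DESeq2). For Scd1 the interaction was -0.31 (95% confidence interval -1.23 to 0.61) and for Elovl6 0.75 (-0.56 to 2.07). For Fasn the same difference was 0.39, and 0.04 with sex as a term, given as a description.

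Other lipid genes were taken from 7 lists, none of which had a gene called between genotypes. Of 23 measured elongation, desaturation and partner genes, 2 fell and 1 rose in Sema3b-/- arthritis against Sema3b-/- control (median -0.23) and 0 passed in WT arthritis against WT control (median -0.31). Set against the 5.55% of all genes called lower and 6.84% called higher in Sema3b-/- mice, counts this small among 23 genes are near the background. Thrsp, a lipogenic cofactor also known as Spot14, averaged 61.0 ± 35.7 normalized counts in Sema3b-/- arthritis (SD, n = 5) and 209 ± 37.8 in Sema3b-/- control (SD, n = 4), with no overlap (log2 fold change -1.96, SE 0.54, limma adjusted p = 0.0279). It averaged 283 ± 163 in WT arthritis and 296 ± 120 in WT control (-0.28, adjusted p = 0.799). The Thrsp call ended without Sema3b-/- control replicates 1 (adjusted p = 0.0628), 2 (0.0569) or 3 (0.0507) or Sema3b-/- arthritis replicates 2 (0.0644) or 5 (0.0501). Tecr, the last enzyme of the elongation cycle, averaged 1368 ± 371 in Sema3b-/- arthritis and 2498 ± 319 in Sema3b-/- control (-0.91, SE 0.22, adjusted p = 0.0136). Acsl4, which activates arachidonic acid, averaged 223 ± 51.6 in Sema3b-/- arthritis and 104 ± 9.25 in Sema3b-/- control (1.07, SE 0.19, adjusted p = 0.00272). Tecr and Acsl4 stayed under 0.05 in all 18 fits that left out 1 library. The interaction was not called for any of these genes, so the calls in Sema3b-/- mice are not shown to differ from the WT values. Without the 3 libraries with other titles, the calls of Tecr (0.074) and Thrsp (0.143) ended.

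None of 10 NADPH supply genes passed in either genotype, with medians of 0.19 in Sema3b-/- mice and -0.07 in WT mice. The lowest p in this list belonged to Taldo1, transaldolase of the pentose phosphate pathway, at 1049 ± 95.7 normalized counts in Sema3b-/- arthritis and 923 ± 122 in Sema3b-/- control (log2 fold change 0.19, limma adjusted p = 0.305). It averaged 945 ± 109 in WT arthritis and 742 ± 58.3 in WT control (0.34, adjusted p = 0.105). Next came Pgls, 6-phosphogluconolactonase, at -0.32 (adjusted p = 0.255) in Sema3b-/- mice and -0.25 (0.422) in WT mice.

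Of 23 regulators of SREBP, LXR and ChREBP signalling, 2 fell and 1 rose in Sema3b-/- arthritis (median -0.15), and 1 fell in WT arthritis (median -0.20), again near the shares of all genes (5.55% lower and 6.84% higher in Sema3b-/- mice, 1.58% lower in WT mice). Nr1h2, which encodes LXR beta, averaged 275 ± 29.9 normalized counts in Sema3b-/- arthritis and 386 ± 34.1 in Sema3b-/- control (log2 fold change -0.49, SE 0.11, limma adjusted p = 0.0101). Nr1h3, which encodes LXR alpha, an activator of Srebf1 and Scd1 known for its expression in macrophages, averaged 73.2 ± 19.1 in Sema3b-/- arthritis and 39.2 ± 14.0 in Sema3b-/- control (0.93, SE 0.28, adjusted p = 0.0367). The Nr1h3 call ended without Sema3b-/- control replicates 3 (adjusted p = 0.127) or 4 (0.061) or Sema3b-/- arthritis replicates 1 (0.0502), 2 (0.0849), 4 (0.0529) or 5 (0.091). Irs1, an insulin receptor substrate, averaged 202 ± 19.5 in Sema3b-/- arthritis and 329 ± 70.5 in Sema3b-/- control (-0.68, SE 0.17, adjusted p = 0.0181, and 0.0629 without Sema3b-/- control replicate 3). Srebf2, whose product SREBP-2 is known for driving cholesterol synthesis, averaged 52.5 ± 16.0 in WT arthritis and 94.7 ± 20.6 in WT control (-0.87, SE 0.23, adjusted p = 0.0448). It averaged 71.4 ± 17.0 in Sema3b-/- arthritis and 77.2 ± 8.06 in Sema3b-/- control (-0.14, adjusted p = 0.744). The WT call of Srebf2 held in 6 of 18 fits that left out 1 library (adjusted p up to 0.146, without WT control replicate 3) and ended with sex as a term (0.295). Without the 3 libraries with other titles, the calls of Nr1h2 (0.0689), Nr1h3 (0.134) and Irs1 (0.108) ended.

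Of 22 measured genes of cholesterol synthesis and uptake, 21 had a negative log2 fold change in WT arthritis (median -0.66) and 17 in Sema3b-/- arthritis (median -0.23), with 1 and 2 called lower. Over all genes 51.9% were negative and 1.58% called lower in WT mice, and 51.0% and 5.55% in Sema3b-/- mice. Mvk, mevalonate kinase, averaged 78.2 ± 17.6 normalized counts in Sema3b-/- arthritis and 171 ± 79.1 in Sema3b-/- control (log2 fold change -1.06, SE 0.25, limma adjusted p = 0.0134). It averaged 81.2 ± 20.6 in WT arthritis and 153 ± 24.2 in WT control (-0.93, SE 0.25, adjusted p = 0.0471), and its libraries did not overlap in either genotype. The WT call of Mvk held in 5 of 18 fits that left out 1 library (up to 0.151, without WT control replicate 3) and the Sema3b-/- call in 18 of 18. Dhcr7, the last enzyme of cholesterol synthesis, averaged 116 ± 39.9 in Sema3b-/- arthritis and 267 ± 105 in Sema3b-/- control (-1.20, SE 0.37, adjusted p = 0.0422, held in 8 of 18 fits, up to 0.122 without Sema3b-/- control replicate 4). In WT arthritis Dhcr7 averaged 92.8 ± 48.8 and in WT control 199 ± 41.8 (-1.23, adjusted p = 0.0684). Without the 3 libraries with other titles, the Sema3b-/- calls of Mvk (0.0742) and Dhcr7 (0.212) ended, and the WT call of Mvk ended with sex as a term (0.188).

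Of 12 measured glycerolipid synthesis genes, 3 fell in Sema3b-/- arthritis (median 0.03), where 5.55% of all genes did. In WT arthritis 0 passed (median -0.19), where 1.58% of all genes were called lower and 2.64% higher. Gpd1, which makes glycerol 3-phosphate, averaged 100.2 ± 40.2 normalized counts in Sema3b-/- arthritis and 276 ± 68.2 in Sema3b-/- control (log2 fold change -1.51, SE 0.36, limma adjusted p = 0.013). Agpat3, an acyltransferase of phospholipid and triglyceride synthesis, averaged 139 ± 30.8 in Sema3b-/- arthritis and 223 ± 30.6 in Sema3b-/- control (-0.70, SE 0.18, adjusted p = 0.0162). Dgat2, the last step of triglyceride synthesis, averaged 186 ± 82.7 in Sema3b-/- arthritis and 539 ± 266 in Sema3b-/- control (-1.56, SE 0.49, adjusted p = 0.0474, held in 5 of 18 fits that left out 1 library, up to 0.13 without Sema3b-/- control replicate 4). In WT arthritis Dgat2 averaged 189.6 ± 145 and in WT control 440.4 ± 40.7 (-1.52, adjusted p = 0.0898). Without the 3 libraries with other titles, the calls of Agpat3 (0.109) and Dgat2 (0.2) ended.

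The lipolysis list held calls in both directions. Of its 8 genes, 1 fell and 1 rose in Sema3b-/- arthritis (median -0.56) and 1 fell in WT arthritis (median -0.52), beside 5.55% lower and 6.84% higher over all genes in Sema3b-/- mice and 1.58% lower in WT mice. Pnpla2, adipose triglyceride lipase, averaged 853 ± 351 normalized counts in Sema3b-/- arthritis and 1928 ± 410.4 in Sema3b-/- control (log2 fold change -1.25, SE 0.33, limma adjusted p = 0.0205). This call ended without Sema3b-/- control replicate 4 (0.0588) or Sema3b-/- arthritis replicate 2 (0.0534). Plin2, a lipid droplet coat protein found in many cell types, averaged 1301 ± 208 in Sema3b-/- arthritis and 503 ± 142 in Sema3b-/- control (1.39, SE 0.24, adjusted p = 0.00222). In WT arthritis Plin2 averaged 1007 ± 414 and in WT control 542 ± 40.4 (0.80, SE 0.24, adjusted p = 0.0711). Mgll, monoacylglycerol lipase, averaged 461 ± 103 in WT arthritis and 849 ± 251 in WT control (-0.86, SE 0.24, adjusted p = 0.048, held in 4 of 18 fits that left out 1 library, up to 0.149 without WT control replicate 1, and 0.205 with sex as a term).

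Fatty acid oxidation, the opposing pathway, had 0 of 19 genes called in Sema3b-/- arthritis (median -0.16) and 2 called lower in WT arthritis (median -0.11). Among all genes, 5.55% were called lower and 6.84% higher in Sema3b-/- mice, and 1.58% lower in WT mice. Hadha, a subunit of the mitochondrial trifunctional protein, averaged 422 ± 79.2 normalized counts in WT arthritis and 577 ± 23.5 in WT control (log2 fold change -0.47, SE 0.13, limma adjusted p = 0.0494). Ppard, a nuclear receptor that turns on oxidation genes, averaged 60.2 ± 11.6 in WT arthritis and 111 ± 21.3 in WT control (-0.87, SE 0.21, adjusted p = 0.0279). The call of Hadha held in 4 of 18 fits that left out 1 library (up to 0.132, without WT control replicate 1) and that of Ppard in 12 (up to 0.0916, without WT control replicate 2), and with sex as a term the adjusted p of Ppard was 0.18. In Sema3b-/- mice the values were -0.06 for Hadha and -0.58 for Ppard (adjusted p = 0.818 and 0.0751).

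**Figure D3:**
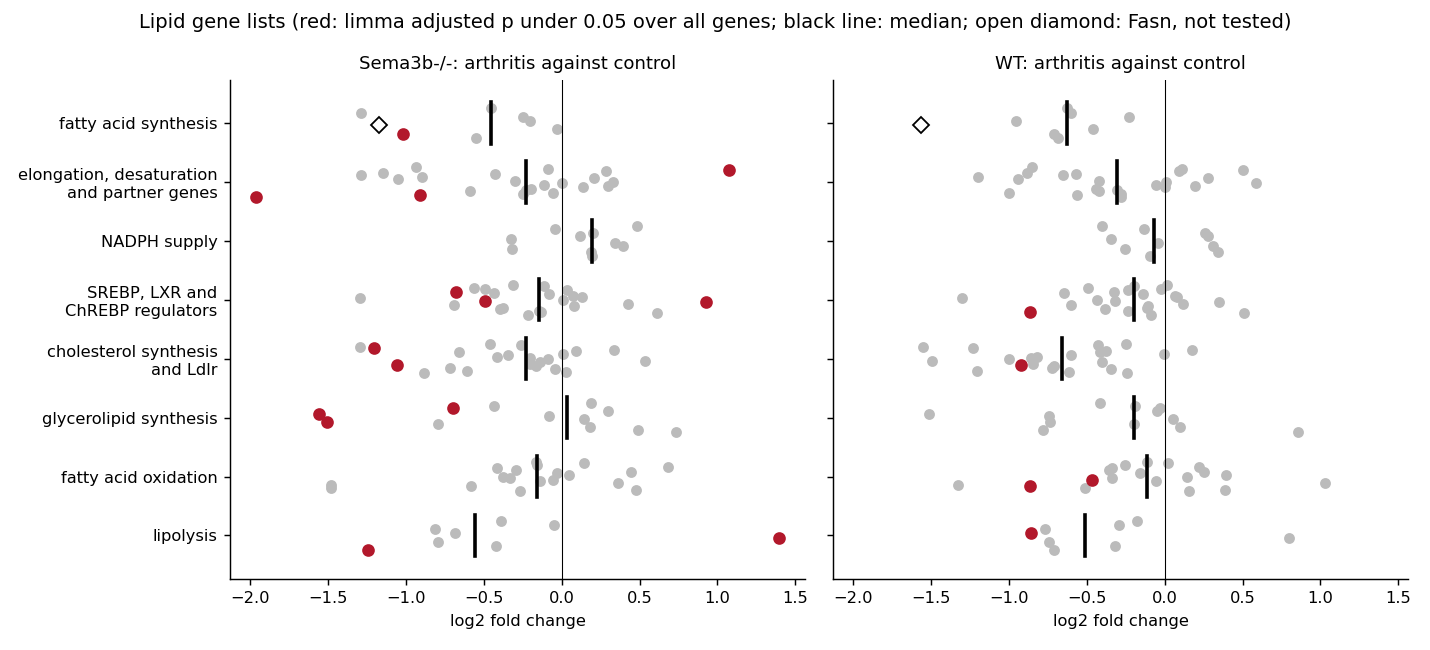
Log2 fold change (horizontal axis) of each tested gene of the 8 lipid lists (rows) for arthritis against control, in Sema3b-/- mice on the left and WT mice on the right. Each point is a gene, red where limma's adjusted p was under 0.05 over all genes, black lines are list medians, and the open diamond is Fasn, which was not tested and is left out of its list's median; most points lie left of 0 for fatty acid synthesis and, in WT mice, for cholesterol synthesis (median -0.66).

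Most markers of fat, skin and muscle had negative log2 fold changes in arthritis, with few called, and most of those of myeloid cells positive ones. Of 12 adipocyte markers, 12 were negative in Sema3b-/- arthritis (median -0.69, only Lep called) and 11 in WT arthritis (median -0.65, 0 called). Their summed level was 5670 to 14291 normalized counts in Sema3b-/- arthritis against 8166 to 12088 in Sema3b-/- control, and 7824 to 20039 in WT arthritis against 13117 to 20472 in WT control. All 12 were also negative in Sema3b-/- arthritis against WT arthritis (median -0.95) and in Sema3b-/- control against WT control (median -0.72), with 0 called in each, on the same side as Scd1. Summed epidermis markers were 4403 to 152756 in Sema3b-/- arthritis against 97647 to 443818 in Sema3b-/- control, and 3862 to 188979 in WT arthritis against 104198 to 169724 in WT control (median log2 fold changes -1.35 and -1.78, 0 of 11 called in either genotype). Summed skeletal muscle markers were 8669 to 75739 in Sema3b-/- arthritis against 80714 to 207624 in Sema3b-/- control, and 8445 to 155508 in WT arthritis against 80556 to 108622 in WT control (medians -1.52 and -0.79, 0 of 12 called).

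Sebaceous gland markers summed to 360 to 1033 in Sema3b-/- arthritis against 581.6 to 1330 in Sema3b-/- control, and 269 to 1389 in WT arthritis against 498 to 1432 in WT control. Of 9 tested, 7 were negative in each genotype (median -0.99 in Sema3b-/- mice and -0.69 in WT mice). None was called lower, and Soat1 was called higher in Sema3b-/- arthritis. Krt79 (28.7%), Soat1 (21.1%) and Ldhb made up most of the sum, although Soat1 and Ldhb are not limited to this gland. Of 10 Schwann cell and myelin markers, 5 fell in Sema3b-/- arthritis and 2 in WT arthritis (sums 758 to 1916 in Sema3b-/- arthritis against 2639 to 4288 in Sema3b-/- control, and 540.4 to 1983 in WT arthritis against 2719 to 4046 in WT control). Of 12 monocyte and macrophage markers 10 rose in Sema3b-/- arthritis and 3 in WT arthritis, and of 10 neutrophil markers 4 and 3. The shares of all genes called were 5.55% lower and 6.84% higher in Sema3b-/- mice and 1.58% lower and 2.64% higher in WT mice. No interaction was called for any gene, so these counts are not shown to differ between genotypes. Brown adipocyte markers, of which Elovl3 and Cidea also count as sebaceous here, summed to 76.8 to 225 in Sema3b-/- arthritis against 145 to 294 in Sema3b-/- control, and 131 to 364 in WT arthritis against 189 to 319.7 in WT control, with 1 of 5 tested, Zic1, called lower in Sema3b-/- arthritis. Ucp1 reached at most 8.09 normalized counts, was not tested, and made up 0.918% of the brown adipocyte sum. Ppargc1a (29.4%) and Dio2 (27.9%) were the largest parts of that sum. Whether brown adipocytes were present was not tested. No marker of any list was at 0 in every library of a group. The part of these cell types in the values of the 8 genes was not tested.

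Some of the genes varied together among libraries of the same group, a measure that the choice of the genes did not use. Over 18 libraries, as log2 deviations from the group means, 4 of 28 pairs were related by both Pearson's and Spearman's coefficient after adjustment over the 28 (permutation within groups, two-sided). Elovl6 and Me1 were related most closely (r = 0.876, rho = 0.843, both adjusted permutation p = 0.00168, r = 0.792 without the 2 libraries farthest from the median of Elovl6). Acacb was related to Me1 (r = 0.796, rho = 0.792, adjusted permutation p = 0.00252 and 0.00812, r = 0.746 without 2 libraries) and to Elovl6 (r = 0.791, rho = 0.713, adjusted permutation p = 0.012 and 0.0324, r = 0.67 without 2). Fasn was related to Scd1 (r = 0.638, rho = 0.647, adjusted permutation p = 0.0318 and 0.0419, r = 0.652 without 2). Fasn with Acly (r = 0.678, adjusted permutation p = 0.0975) and with Srebf1 (r = 0.639, 0.102) did not pass, and Fasn with Elovl6 had r = 0.322. All pairs share libraries, depth and size factors. The deviations were not adjusted for sex, by which Fasn and Scd1 split in the same direction in Sema3b-/- control. The part of sex in these relations was not tested.

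The same deviations were set against summed markers in 64 relations of 8 genes and 8 lists, of which 11 passed by both coefficients. Elovl6 followed the summed sebaceous gland markers most closely (r = 0.905, rho = 0.901, adjusted permutation p = 0.00512 and 0.00448, r = 0.857 without 2 libraries), and Me1 did so too (r = 0.825, rho = 0.802, adjusted permutation p = 0.00512 and 0.0096, r = 0.722 without 2). The relation was not limited to that list: Elovl6 also passed with brown adipocyte (r = 0.80), epidermis (0.799) and skeletal muscle markers (0.739), and Me1 with epidermis (0.729) and brown adipocyte markers (0.704). Ucp1 made up 0.918% of the brown adipocyte sum, which shares Elovl3 and Cidea with the sebaceous gland sum. Acacb followed the epidermis markers (r = 0.86, rho = 0.695, adjusted permutation p = 0.0133 and 0.0489, r = 0.67 without 2), and also passed with brown adipocyte (0.767) and sebaceous gland markers (0.743). Scd1 followed the adipocyte markers (r = 0.644, rho = 0.701, adjusted permutation p = 0.0389 and 0.0417, r = 0.562 without 2). Fasn, Acaca, Acly and Srebf1 passed with no list, and for Fasn the highest r was with adipocyte markers (0.443, rho = 0.459, adjusted permutation p = 0.232 and 0.175). All 11 relations belonged to Acacb (3), Elovl6 (4), Me1 (3) and Scd1 (1).

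**Figure D4:**
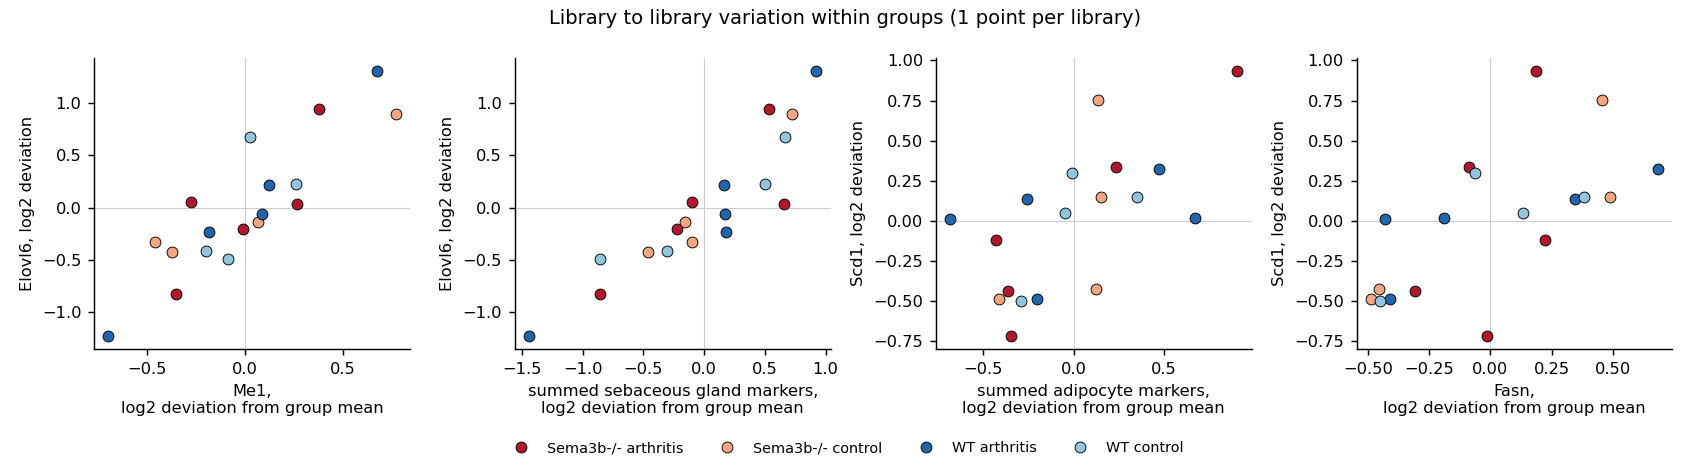
Deviation of each library from its group mean in log2 units, for Elovl6 against Me1, Elovl6 against summed sebaceous gland markers, Scd1 against summed adipocyte markers and Scd1 against Fasn, with 1 point per library coloured by group. Points rise together in all 4 panels, most tightly for Elovl6 with the sebaceous gland markers (r = 0.905).

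By the same deviations, the 6 genes most like Fasn among 6904 genes at or above the median level were Wapal (r = 0.87), Pcx (0.84), Tfeb (0.83), Ippk (0.79), Abhd5 (0.79) and Ndfip2 (0.76). These coefficients are the highest of 6904 over 18 libraries and are given as a description. Of the other fatty acid synthesis genes, Acly ranked 34, Srebf1 68, Scd1 70, Acaca 238, Me1 286 and Elovl6 1155, while Acacb (r = 0.36) was under the median level and had no rank. Pcx, mitochondrial pyruvate carboxylase, whose product feeds citrate synthesis, was itself called lower in Sema3b-/- arthritis (log2 fold change -0.95, limma adjusted p = 0.0162) and was at -0.40 in WT arthritis (adjusted p = 0.345). Tfeb, a transcription factor of lysosome genes, was called lower in Sema3b-/- arthritis (-0.72, adjusted p = 0.0241) and was at -0.50 in WT arthritis (adjusted p = 0.15). The other 4 were called in neither genotype, with log2 fold changes between -0.39 and 0.07.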

How the data were processed

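RNA of 18 forepaw samples was sequenced by CEL-seq on a NextSeq500, per the labels' protocols. Reads were aligned with BWA to mm10 and processed with DESeq2 1.32, per the submitters' processing notes. The sources used here name no counting tool or annotation, and do not say whether molecular barcodes were used. The table deposited by the authors gives each gene in each library as a signal, called normalized count here, which equals reads over that library's size factor. Further tables by the authors hold log2 fold changes and adjusted p-values per comparison. Multiplying back gave whole reads, with a tolerance of 0.02, at 100% of values, and their sums are the depths given.

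Genes with at least 10 normalized counts in at least 4 libraries (13809 of 18585) were tested on log2(normalized count + 1) with limma 3.58.1 in R 4.3.3, in 1 model of 4 groups, and called at a Benjamini-Hochberg adjusted p under 0.05. Alternatives were TMM scaling, edgeR 4.0.16 and DESeq2 1.42.0 on recovered reads, pseudocounts of 4 and 0.25, no filter or a filter at 50, sex as a term, a replicate block, only the groups compared, and leaving out libraries; a fit to female libraries was chosen after seeing the data. On recovered reads, edgeR called 717 genes in WT arthritis and 1634 in Sema3b-/- arthritis, each against its control.

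The 8 genes and all lists were chosen with earlier results of these data known. Named from each list were the 2 genes with the lowest p and up to 4 called in either arthritis comparison. Replicate numbers did not pair samples: over 25 same-numbered pairs the correlation of deviations was -0.65 to 0.58. In Sema3b-/- control, 2 titles share the number 3, and the one whose column has the higher number was numbered 4. A column whose name ends in Ct is arthritis by its title and treatment label, and was used so. No 2 replicates agreed within sampling noise. Positions are from the GENCODE vM21 annotation of mm10.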

Additional observations from a re-analysis of the deposited data

Results flagged for a closer look

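In 64 groups examined (8 genes and 8 summed marker lists in 4 groups), 3 held a library that stood apart from the rest of its group by Dixon's criterion, and chance flags about 1 in 20 groups. Elovl6 was at 314.2 normalized counts in Sema3b-/- control replicate 4, against 126 to 154 in the other 3. Summed adipocyte markers were at 8166 in Sema3b-/- control replicate 3, the lowest of its group. Summed skeletal muscle markers were at 80556 in WT control replicate 3, the lowest of its group. Without Sema3b-/- control replicate 4, the call of Scd1 in Sema3b-/- arthritis ended (adjusted p = 0.0866 by limma), and the log2 fold changes of Elovl6 and Me1 there turned positive, to 0.10 and 0.22.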

How the results depend on the processing

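Under alternatives other than leaving out 1 library, 422 values of the 8 genes, for Fasn in arthritis by direction alone, kept their direction and side of the threshold, 13 turned sign, 4 gained a call and 4 lost one. Genes called in WT arthritis against WT control (582) were 1279 with DESeq2, 133 with sex as a term, 196 with the replicate block, 232 without the 3 libraries titled otherwise, 283 with only the groups compared and 149 to 1111 without 1 library (149 without WT control replicate 3, 188, 228 and 264 without replicates 1, 2 and 4, 1111 without WT arthritis replicate 2, and 300, 191 and 285 without replicates 3, 4 and 5). In Sema3b-/- arthritis against Sema3b-/- control (1710) they were 1020 with the block, 396 without the 3 libraries, 1005 in female libraries, 1040 with only the groups compared and 978 to 1913 without 1 library (978 and 1085 without Sema3b-/- arthritis replicates 2 and 5, 995 without Sema3b-/- control replicate 3). In Sema3b-/- control against WT control (2) they were 1 with edgeR, without a filter or with the block, 5 with DESeq2, 0 with a pseudocount of 0.25, a filter at 50, sex as a term, female libraries or only the groups compared, and 0 to 3 without 1 library. In Sema3b-/- arthritis against WT arthritis (3) they were 94 with DESeq2, 0 without the 3 libraries or with only the groups compared, and 2 to 6 without 1 library. The interaction had 6 with DESeq2, against 0, and 0 to 0 without 1 library.

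Of the 7 genes tested for arthritis, which leave out Fasn, 1 was called in WT arthritis under TMM scaling, DESeq2 or a filter at 50 (0 to 1 without 1 library), and of all 8 genes 1 in Sema3b-/- arthritis against WT arthritis with DESeq2. In Sema3b-/- arthritis against Sema3b-/- control 0 of the 7 were called with the block (Scd1 adjusted p = 0.0898), without the 3 libraries, in female libraries or with only the groups compared (0.117), and 0 to 2 without 1 library. The replicate numbers share only a number: 3 of 18 libraries correlated best with their own number.

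Of the named genes of other lipid lists, 381 values kept direction and call under these alternatives, 49 lost a call, 5 gained one and 2 turned sign. Calls in Sema3b-/- arthritis were lost by 9 genes without the 3 libraries, 6 in female libraries, 4 with the block, 4 with only the groups compared, 2 without a filter (Dhcr7, Dgat2) and 1 with sex as a term (Dgat2), and by Acsl4, Gpd1 and Plin2 under none of them. In WT arthritis, where 5 were called, calls were lost by 5 with the block, 4 each without the 3 libraries, with sex as a term, without a filter or with only the groups compared, and 2 with edgeR (Mvk, Hadha).

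Log2 fold changes that turned sign were, in Sema3b-/- arthritis against Sema3b-/- control, Elovl6 (0.0632) and Hadha (0.029) without the 3 libraries and Hadha (0.0111) with sex as a term. In Sema3b-/- control against WT control, Fasn (0.0842), Acly (0.118) and Me1 (0.0522) turned in female libraries. In Sema3b-/- arthritis against WT arthritis, Fasn turned with edgeR (-0.0645), DESeq2 (-0.0683), sex as a term (-0.19) and without the 3 libraries (-0.10), Acaca (0.0688) and Srebf1 (0.10) without the 3 libraries, and Me1 with sex as a term (-0.0869). In the interaction, Acaca turned with sex as a term (-0.0237) and Acly without the 3 libraries (0.0392). Without 1 library, the ranges that crossed 0 were, in Sema3b-/- arthritis against Sema3b-/- control, Elovl6 -0.44 to 0.10, Hadha -0.12 to 0.0113 and Me1 -0.18 to 0.22, and in WT arthritis Agpat3 -0.10 to 0.0672 and Thrsp -0.52 to 0.17. In Sema3b-/- arthritis against WT arthritis they were Acacb -0.67 to 0.0172, Acly -0.16 to 0.00016, Elovl6 -0.14 to 0.50, Fasn -0.11 to 0.17, Me1 -0.11 to 0.23 and Srebf1 -0.13 to 0.0807, in Sema3b-/- control against WT control Acly -0.17 to 0.00307, and in the interaction Acly -0.10 to 0.0765. The cause was not tested. The filter at 50 left out Acacb, and the interaction has no fit with only the groups compared. Depth limits Acacb most.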

Other observations

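The authors' deposited table gives its own log2 fold changes and adjusted p-values for these genes. In the authors' deposited table Scd1 had a log2 fold change of -0.99 in Sema3b-/- arthritis against Sema3b-/- control (adjusted p = 0.0771), so it was not called there. In the authors' deposited table Srebf1 was at -0.54 (adjusted p = 0.134) in Sema3b-/- arthritis and -0.65 (0.0867) in WT arthritis, each against its control. For Scd1 in Sema3b-/- arthritis against WT arthritis, the authors' deposited table gives -1.09 (adjusted p = 0.587).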
